A study of Mus musculus with 6 samples.

Results

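The subunits of respiratory complexes II, III, IV and V and the electron carrier cytochrome c were followed in epididymal white adipose tissue, the fat pad beside the epididymis, of fasted mice. Members were taken by symbol: the 4 Sdh genes, the Uqcr genes, Cyc1, Cycs, the Cox genes of families 4 to 8, the protein-coding Atp5 genes, and the 6 mitochondrially encoded genes CYTB, COX1, COX2, COX3, ATP6 and ATP8. This gave 55 of the 45777 genes in the table, of which 53 were among the 17820 genes with enough reads to test. Cox8c had 3 reads in 1 library labelled WT and none elsewhere, Cox7b2 had none in any library, and neither was tested. The members comprised 4 genes of complex II, 10 nuclear genes of complex III with cytochrome c, 18 nuclear genes of complex IV, 17 nuclear genes of complex V and the 6 mitochondrial genes.

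Gene expression was measured by mRNA sequencing in 6 libraries, 3 per group, and the comparison asks what the loss of Pak4 from adipocytes does to the transcripts of this tissue. The KO group is labelled Adipoq-Cre; Pak4 flox/flox, so that Cre is driven by the Adipoq promoter, which is active in adipocytes, and the WT group is labelled Pak4 flox/flox. All 6 libraries thus carry floxed Pak4, the kinase targeted here, and all are from C57BL/6 mice fasted for 24 h. The labels call the cells adipocytes, whereas the protocol describes whole excised tissue, and Cre is not driven in the other cells of the tissue. The labels do not say that each library is a separate mouse, and p-values measure only the spread between these libraries.

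The libraries held between 62854465 and 72005658 counts, and 3 counts, the smallest level taken as detected, corresponded to 0.0417 to 0.0477 CPM (counts scaled to library size). Pak4 itself had 815, 744 and 675 counts in the libraries labelled KO, against 339, 337 and 358 in the libraries labelled WT, a log2 ratio of 0.96 ± 0.14 (SE; edgeR adjusted p = 0.0898). The targeted gene was therefore more abundant in the libraries labelled KO, against the direction that the label gives, and "KO" and "WT" below mean the libraries so labelled. Counts over the whole gene cannot show whether the floxed part is deleted, so these data do not settle whether the group labels are exchanged, and an exchange would turn the sign of every fold change below. The adipocyte markers Adipoq, Plin1, Lep, Cidec, Fabp4, Pparg, Lipe and Pnpla2 summed to 60046 to 63302 TPM, the authors' level per transcript length, in KO libraries and 63168 to 70334 TPM in WT libraries, so the defining transcripts of the labelled cell type were abundant. CPM values are scaled by the trimmed mean of M values (TMM), and log2 fold changes are KO over WT with standard errors.

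The respiratory chain passes electrons from NADH and succinate through ubiquinone and cytochrome c to oxygen, and complexes III and IV pump protons that ATP synthase, complex V, uses to make ATP. Complex II, succinate dehydrogenase, is encoded wholly in the nucleus and also works in the citric acid cycle, whereas complexes III, IV and V combine nuclear subunits with subunits made inside the mitochondrion. Several nuclear subunits of complex IV have a general form and a form enriched in heart, skeletal muscle and brown fat. White adipocytes hold few mitochondria compared with brown adipocytes, and the muscle-type forms Cox7a1 and Cox8b are commonly used as markers of brown or beige fat.

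Promoters of 4 complex IV genes are shown because the results turn on the muscle-type forms and their general relatives. Each runs from 250 bases before to 50 bases after the RefSeq gene start in GRCm38.p6, 5′ to 3′ on the gene's own strand. Capitals mark matches on either strand to 5 motifs: GCGCA, any base and GCGC for NRF1, CCGGAAG for GABPA, TCAAGGTCA for the estrogen-related receptors, AAGATGGCG for YY1 and TATAAA for the TATA box. Cox7a1 is at chr7:30183921-30184220 on the plus strand, Cox8b at chr7:140900397-140900696 on the minus strand, Cox8a at chr19:7217567-7217866 on the minus strand, and Cox6a1 at chr5:115348909-115349208 on the minus strand.
Cox7a1: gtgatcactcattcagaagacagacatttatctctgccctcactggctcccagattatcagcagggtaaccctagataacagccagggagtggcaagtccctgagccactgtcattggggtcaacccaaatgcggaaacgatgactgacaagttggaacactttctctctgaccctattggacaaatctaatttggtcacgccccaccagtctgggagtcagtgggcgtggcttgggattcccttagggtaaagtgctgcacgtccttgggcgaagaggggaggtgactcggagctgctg
Cox8b: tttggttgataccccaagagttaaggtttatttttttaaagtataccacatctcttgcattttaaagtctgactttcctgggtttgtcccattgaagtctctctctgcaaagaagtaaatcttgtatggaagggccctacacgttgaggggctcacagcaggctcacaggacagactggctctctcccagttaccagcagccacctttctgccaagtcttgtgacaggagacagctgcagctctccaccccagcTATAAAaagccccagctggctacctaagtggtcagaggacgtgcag
Cox8a: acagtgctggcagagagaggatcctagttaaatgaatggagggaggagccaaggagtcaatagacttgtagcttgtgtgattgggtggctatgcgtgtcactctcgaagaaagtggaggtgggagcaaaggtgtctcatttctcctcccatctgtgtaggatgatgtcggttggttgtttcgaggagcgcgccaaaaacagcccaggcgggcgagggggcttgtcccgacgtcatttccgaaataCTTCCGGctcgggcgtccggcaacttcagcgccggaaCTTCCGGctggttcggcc
Cox6a1: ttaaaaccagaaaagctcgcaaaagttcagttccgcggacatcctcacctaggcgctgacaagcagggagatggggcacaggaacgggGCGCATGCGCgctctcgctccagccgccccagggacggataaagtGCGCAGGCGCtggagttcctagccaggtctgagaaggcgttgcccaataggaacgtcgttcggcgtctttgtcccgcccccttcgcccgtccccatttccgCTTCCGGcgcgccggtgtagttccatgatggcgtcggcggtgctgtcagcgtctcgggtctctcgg
The muscle-type Cox7a1 window held none of the 5 motifs. The Cox8b window held a TATAAA that begins 4 bases after the RefSeq start, not before it. The general-form Cox8a window held 2 GABPA matches, and the Cox6a1 window held 2 NRF1 matches and 1 GABPA match. Not every general form held such matches: the window of Cox7a2, the general form beside Cox7a1, held none of the 5 motifs. Among the 13 complex IV genes with a window, NRF1 matches were in 1 and GABPA matches in 3.

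RefSeq promoter windows were available for 37 of the 49 nuclear members. An NRF1 match was present in 10 of these genes (27.0%), against 9.76% of tested genes and 5.19% of all genes with a window. GABPA matches were present in 13 (35.1%), against 17.3% of tested genes and 9.93% of all genes. TCAAGGTCA was found in 2 genes (5.41%, against 0.321% of tested genes), AAGATGGCG in 2 (tested genes, 2.92%) and TATAAA in 4 (10.8%, against 9.93%). No window held overlapping matches of different motifs. The 19 tested members with an NRF1 or GABPA match had a median log2 fold change of -0.12, 15 of them below 0, and the 17 tested members with neither had a median of -0.17, also with 15 below 0. A match describes the letters of the window and does not show that a factor binds there.

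Most subunits had slightly lower levels in KO libraries, but no member passed the test. Of the 53 tested members, 44 had a log2 fold change below 0 and 9 above, with a median of -0.14, whereas all 17820 tested genes had a median of 0.015 with 47.9% below 0. None of the members passed an adjusted p of 0.05 in edgeR's quasi-likelihood test, and the lowest adjusted p among them was 0.158. Only 3 of the 17820 tested genes passed (0.0168%), Col8a1 and the predicted genes Gm7049 and Gm11868, all lower in KO. Without adjustment, 11 members were lower and 1 was higher at p under 0.05, which is 20.8% and 1.89% of the tested members, against 9.71% and 9.66% of all tested genes. In 18 members (34%) every KO library lay below every WT library, against 12.5% of all tested genes, and in 1 member, Cox6b2, every KO library lay above, against 13.7%.

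With scaling by library size alone the median of all genes moved to 0.13, 29 members were below 0 and the median of the members was -0.015. The median of the members minus that of all genes was -0.15 under either scaling. A change of scaling shifts members and all genes nearly alike, so this difference does not test the scaling. The choice of test mattered for individual members. DESeq2 called 4 members lower in KO and none higher, where it called 4.12% of its tested genes lower and 2.76% higher. These were Atp5g3 (adjusted p = 0.0127), Atp5b (adjusted p = 0.0165), Cox7a1 (adjusted p = 0.0219) and Cycs (adjusted p = 0.0450). limma voom called none. Without KO replicate 1, edgeR called 3 members lower, Cox7a1, Uqcrc1 and Cox6a1, and none higher, where 3.49% of all tested genes were called lower and 2.08% higher.

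**Figure D1:**
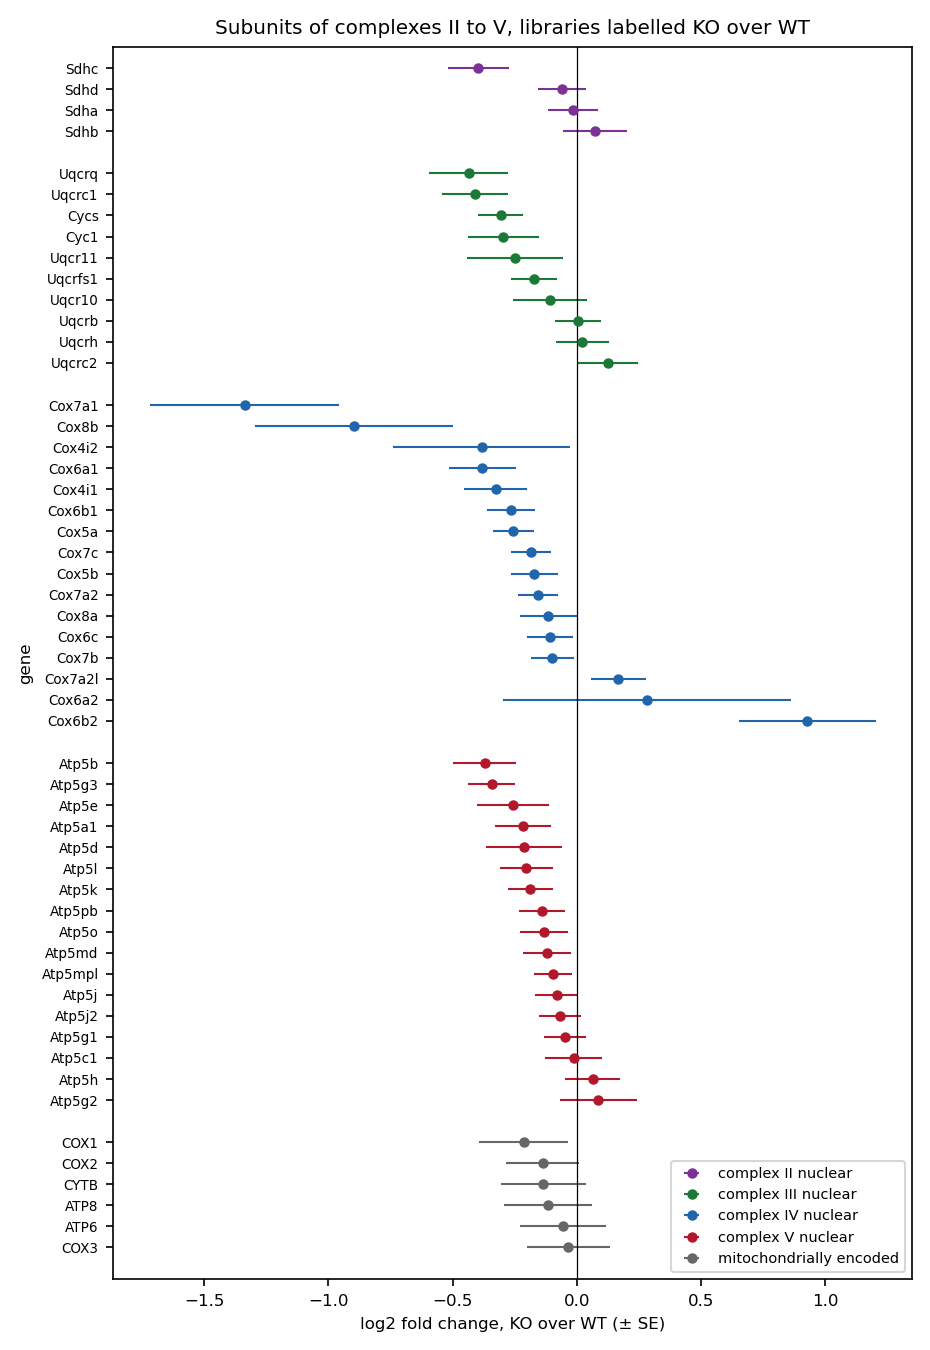
Log2 fold change, KO over WT, with its standard error for each tested member, grouped by complex. Most points lie left of 0, with the muscle-type Cox7a1 at -1.34 and Cox8b at -0.90 far from the rest and Cox6b2 at 0.93 on the other side.

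Summed over the nuclear members, levels per transcript length were 18763, 17741 and 17872 TPM in KO libraries, against 20371, 19484 and 19266 TPM in WT libraries. The groups did not overlap. Complexes IV and V accounted for most of this: complex IV nuclear subunits averaged 6460 ± 241 TPM in KO and 7161 ± 218 TPM in WT (SD, n = 3 each), and complex V nuclear subunits averaged 7644 ± 178 TPM in KO and 8298 ± 219 TPM in WT. Complex III with cytochrome c averaged 3020 ± 193 TPM in KO and 3234 ± 183 TPM in WT, and complex II 1002 ± 13.5 TPM in KO and 1014 ± 35.9 TPM in WT. In bulk tissue, fewer cells of a type and less RNA per cell cannot be told apart.

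Complex II had 3 of 4 genes below 0 and a median log2 fold change of -0.04, which was 0.082 when scaled by library size alone and -0.0077 without KO 1. Sdha, the flavoprotein that oxidises succinate, had 468, 483 and 477 CPM in KO libraries, against 496, 457 and 491 CPM in WT libraries (-0.02 ± 0.10). Sdhb, the iron-sulfur subunit, had 166, 151 and 192 CPM in KO and 167, 175 and 142 CPM in WT (0.07 ± 0.13), and the ranges of both genes overlapped. Sdhc and Sdhd are the membrane anchors of the complex. Sdhc had 128, 114 and 94.6 CPM in KO, against 156, 145 and 142 CPM in WT, with every KO library below every WT library (-0.40 ± 0.12, unadjusted p = 0.0129, edgeR adjusted p = 0.175). Sdhd, its partner in the membrane, overlapped between groups, with 127, 134 and 148 CPM in KO and 148, 145 and 134 CPM in WT (-0.06 ± 0.10).

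In complex III and cytochrome c, 7 of the 10 nuclear genes lay below 0 and the median was -0.21, or -0.12 without KO 2. Its genes lay on both sides of 0. Uqcrc1, a core protein facing the matrix, had 201, 152 and 152 CPM in KO libraries, against 220, 236 and 214 CPM in WT libraries, without overlap (-0.41 ± 0.13, edgeR adjusted p = 0.189). Uqcrc2, the partner core protein, had 175, 195 and 227 CPM in KO and 193, 172 and 183 CPM in WT (0.13 ± 0.12). Whether these 2 partners differ from each other was not tested. Uqcrq, a small accessory subunit, had 176, 125 and 146 CPM in KO, against 212, 223 and 169 CPM in WT, and 1 KO library lay above the lowest WT library (-0.43 ± 0.16, edgeR adjusted p = 0.208). This was the lowest fold change of the complex.

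The electron carriers were also compared. Cyc1, the cytochrome c1 subunit, had 187, 147 and 140 CPM in KO libraries, against 192, 217 and 173 CPM in WT libraries, and the groups overlapped through KO 1 (-0.30 ± 0.14, edgeR adjusted p = 0.293). Cycs, cytochrome c itself, which carries electrons on to complex IV, had 96.2, 94.5 and 99.8 CPM in KO and 121, 128 and 111 CPM in WT, without overlap (-0.31 ± 0.09, unadjusted p = 0.00944, edgeR adjusted p = 0.169). Uqcrfs1, the Rieske iron-sulfur protein, also separated the groups, at -0.17 ± 0.09. Uqcr11 had the highest TPM of the nuclear complex III genes and -0.25 ± 0.19. CYTB, the mitochondrial subunit of the complex, is given with the other mitochondrially encoded genes. The remaining nuclear genes of the complex, Uqcr10, Uqcrb and Uqcrh, had values of -0.11, 0.01 and 0.02.

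Complex IV held the largest differences in either direction. Of its 16 tested nuclear genes 13 were below 0, with a median of -0.18, and 9 separated the groups with KO lower (56.2%, against 12.5% of all tested genes). Cox7a1, the muscle-type form of subunit 7a, had 130, 48 and 67 counts in KO libraries and 156, 237 and 172 counts in WT libraries, or 1.93, 0.689 and 0.899 CPM in KO and 2.55, 3.54 and 2.80 CPM in WT. No KO library reached the lowest WT library (-1.34 ± 0.38, unadjusted p = 0.0087, edgeR adjusted p = 0.167), and KO 1 was the nearest to it. Cox8b, the muscle-type form of subunit 8, had 5.62, 2.02 and 6.37 CPM in KO, against 8.19, 10.5 and 7.40 CPM in WT, also without overlap (-0.90 ± 0.40, edgeR adjusted p = 0.270). The Cox8b value was -0.54 without KO 2 and -1.19 without KO 3. Cox6b2, a form best known from testis, went the other way at 2.02, 2.94 and 2.67 CPM in KO and 1.83, 1.04 and 1.14 CPM in WT (0.93 ± 0.28, unadjusted p = 0.0104, edgeR adjusted p = 0.169).

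Cox6a2, the muscle form of subunit 6a, had 17, 13 and 6 counts in KO and 6, 14 and 7 counts in WT, too few to tell the groups apart (0.28 ± 0.58). Its gene span shares 70 bases with Itgad, which averaged 1.55 CPM and had a log2 fold change of 1.01, so the Cox6a2 value is uncertain. Cox4i2, the lung-enriched form of subunit 4, had 1.01, 0.488 and 0.564 CPM in KO and 0.718, 1.13 and 0.831 CPM in WT (-0.38 ± 0.36). Its gene span, introns included, shares 6308 bases with Bcl2l1, which averaged 34.1 CPM, so the Cox4i2 value is uncertain. The sources used here do not state whether strand was used in counting.

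The general forms were each far more abundant than their tissue-type relatives. Cox4i1, the general form of the largest nuclear subunit, had 430, 341 and 362 CPM in KO libraries, against 471, 505 and 443 CPM in WT libraries (-0.33 ± 0.13, edgeR adjusted p = 0.225). Cox6a1 had 264, 208 and 194 CPM in KO and 297, 297 and 273 CPM in WT (-0.38 ± 0.13, edgeR adjusted p = 0.203), and Cox6b1, which sits where the monomers of the complex meet, had 203, 186 and 191 CPM in KO and 244, 235 and 217 CPM in WT (-0.27 ± 0.10, edgeR adjusted p = 0.207). None of the 3 overlapped between groups. Cox7a2, the general form beside Cox7a1, had 100, 98.6 and 106 CPM in KO and 111, 115 and 113 CPM in WT (-0.16 ± 0.08). Its gene span, introns included, shares 2482 bases with Tmem30a, all upstream of the RefSeq start used for its promoter window. Cox7b, whose relative Cox7b2 had no read, was at -0.10 with overlapping groups. Cox7a2l, which helps join complexes III and IV in supercomplexes, had 125, 148 and 159 CPM in KO and 131, 131 and 123 CPM in WT (0.17 ± 0.11). Cox5a, a subunit on the matrix side, had 70.2, 64.5 and 62.1 CPM in KO and 79.7, 77.9 and 77.4 CPM in WT, without overlap (-0.26 ± 0.08, edgeR adjusted p = 0.184). Cox8a, the general form beside Cox8b and the nuclear member with the highest level per length, had 450, 384 and 411 CPM in KO and 483, 441 and 424 CPM in WT (-0.11 ± 0.11), and the groups overlapped.

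The tissue-type forms were a small share of the summed TPM of each pair of forms. Cox7a1 was 4.30%, 1.44% and 1.70% of the summed TPM of Cox7a1 and Cox7a2 in KO libraries, against 4.72%, 6.12% and 5.04% in WT libraries. Cox8b was 1.84%, 0.783% and 2.27% of Cox8a and Cox8b in KO, against 2.48%, 3.45% and 2.55% in WT. Cox6b2 was 0.849%, 1.33% and 1.18% of Cox6b1 and Cox6b2 in KO, against 0.636%, 0.370% and 0.431% in WT. In these 3 pairs the groups did not overlap, and the exact permutation test of 3 libraries against 3 gave 0.1 for each, the smallest two-sided p that this design allows. In the other 2 pairs the groups overlapped. Cox6a2 was 0.0820%, 0.0719% and 0.0344% of Cox6a1 and Cox6a2 in KO, against 0.0274%, 0.0577% and 0.0324% in WT (exact permutation p = 0.2, two-sided). Cox4i2 was 0.238%, 0.143% and 0.157% of Cox4i1 and Cox4i2 in KO, against 0.154%, 0.226% and 0.189% in WT (exact permutation p = 0.9, two-sided).

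**Figure D2:**
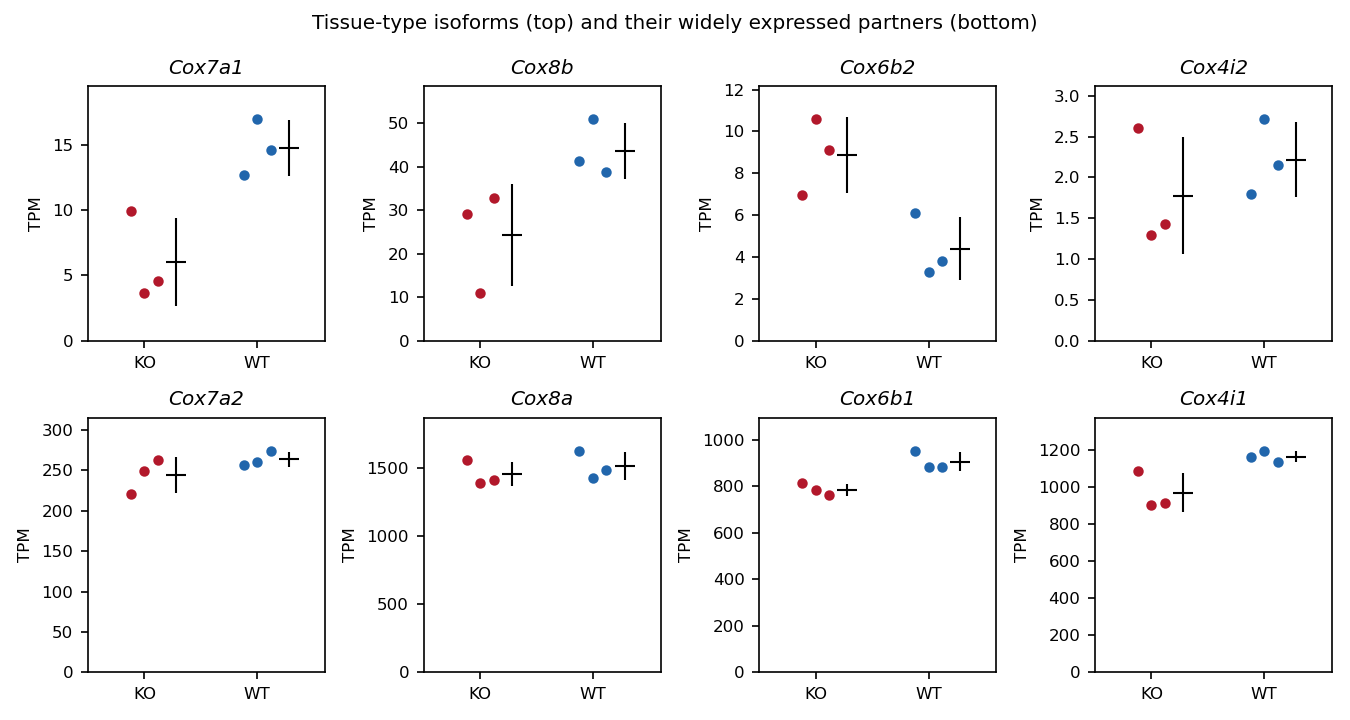
TPM of 4 tissue-type forms of complex IV subunits (top) and their general relatives (bottom), KO left of WT, with 1 point per library and the mean ± SD beside them. Cox7a1 and Cox8b lie lower in every KO library than in any WT library, and Cox6b2 higher.

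Markers of tissues that use the muscle-type forms also varied. The skeletal muscle markers summed to 32.4 to 210 TPM in KO libraries and 121 to 722 TPM in WT libraries, of which the actin gene Acta1 was the largest part except in KO 2, where Myl1 was. Acta1 was at 151, 7.8 and 13.9 CPM in KO and 79.5, 582 and 257 CPM in WT, while Ckm, the muscle creatine kinase, was at 0 to 0.23 CPM in KO and 0 to 0.164 CPM in WT. Among the 6 tested muscle markers 4 were below 0, with Myl1 at -0.37 and Tnnc2 at -1.20. The 2 above 0 were Mylpf at 0.38 and Tnnt3 at 0.46. Brown or beige markers summed to 16.1 to 41.3 TPM in KO and 56.1 to 70.3 TPM in WT, nearly all of it from Cox8b and Cox7a1 themselves. Ucp1, which defines brown fat, had 0.208, 0 and 0 CPM in KO and 0.098, 0.164 and 0.375 CPM in WT, and Zic1 was at 0 in all 6 libraries. Heart muscle markers were at 1.79 to 2.56 TPM in KO and 1.95 to 2.54 TPM in WT, with Myl7 at -0.32 and Tnnt2 at 0.39. For Cox6b2, testis markers summed to 0 to 2.29 TPM in KO and 0 to 3.65 TPM in WT. The part of these cell types in the isoform differences was not tested.

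Complex V had 15 of 17 nuclear genes below 0 and a median of -0.13, or -0.078 without WT 2. Atp5b, the catalytic beta subunit of the F1 head, had 1367, 1208 and 1144 CPM in KO libraries, against 1576, 1619 and 1614 CPM in WT libraries (-0.37 ± 0.13, unadjusted p = 0.0194, edgeR adjusted p = 0.195). Atp5a1, the alpha subunit that alternates with beta in the head, had 737, 689 and 637 CPM in KO and 805, 794 and 795 CPM in WT (-0.22 ± 0.11). Neither overlapped between groups. Atp5k, a small membrane subunit that helps ATP synthase form dimers, had 67.8, 66.8 and 61.6 CPM in KO and 79.0, 76.0 and 68.3 CPM in WT, without overlap.

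The 3 genes of subunit c, whose mature protein forms the rotating ring of ATP synthase and is the same from each gene, did not all separate the groups. Atp5g3 had 194, 180 and 173 CPM in KO libraries, against 236, 224 and 233 CPM in WT libraries, without overlap (-0.34 ± 0.09, unadjusted p = 0.00696, edgeR adjusted p = 0.158). Atp5g2 had 170, 130 and 167 CPM in KO and 171, 147 and 122 CPM in WT (0.09 ± 0.16), and Atp5g1 lay at -0.05 ± 0.08. Atp5g3 made up 46.0%, 49.0% and 43.8% of the subunit c TPM in KO, against 50.7%, 52.7% and 57.6% in WT (exact permutation p = 0.1, two-sided). Atp5g2 made up 44.4%, 39.7% and 46.8% in KO and 40.3%, 38.1% and 32.1% in WT (exact permutation p = 0.2, two-sided).

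All 6 mitochondrially encoded genes had log2 fold changes below 0, from -0.21 to -0.03, and all overlapped between groups, while ATP6, ATP8 and COX3 lay above 0 when scaled by library size alone. Their median was -0.12 with all libraries, -0.24 without KO 3, -0.051 without KO 1, -0.047 without KO 2 and -0.045 without WT 2. COX1, a catalytic subunit of complex IV and the most abundant member per length, had 21520, 20801 and 26656 CPM in KO libraries, against 24719, 28173 and 27059 CPM in WT libraries (-0.21 ± 0.18). COX2, which receives electrons from cytochrome c, was at -0.14 ± 0.15, and COX3, another core subunit, at -0.03 ± 0.17. CYTB, the ubiquinol-oxidising core of complex III, was at -0.13 ± 0.17. ATP6, which forms part of the proton channel of ATP synthase, was at -0.05 ± 0.17 and its small partner ATP8 at -0.12 ± 0.18. KO 3 had the highest ATP6, ATP8 and COX3 values of the 6 libraries, and KO 1 and KO 2 the lowest of all 6 genes. COX2 was also highest in KO 3, but only narrowly (4327 CPM, against 4326 CPM in WT 2). The mitochondrially encoded share of all counts was 6.68%, 6.67% and 8.66% in KO and 6.998%, 7.65% and 7.44% in WT. ATP8 and ATP6 overlap by 43 bases on the mitochondrial genome, so reads in that stretch cannot be assigned to either.

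The libraries did not shift in step. After centring each gene over the 6 libraries, the median of the tested members was -0.04, -0.15 and -0.01 in KO libraries and 0.09, 0.12 and 0.01 in WT libraries on the log2 scale. KO 2 was lowest, and KO 3 and WT 3 were closest. A property of the transcripts varied with these values: over the 47 tested nuclear members, the Spearman correlation of GC content with the centred level was 0.67, -0.48 and -0.29 in KO libraries and 0.23, 0.39 and -0.08 in WT libraries. Over 16593 genes with a GC value it was 0.26, -0.17 and -0.20 in KO and 0.10, 0.06 and 0.09 in WT. With GC content as an offset in the fit, the median over the 47 members was -0.17, against -0.16 for the same members without it, and none was called. These correlations are across genes within libraries and describe them only.

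**Figure D3:**
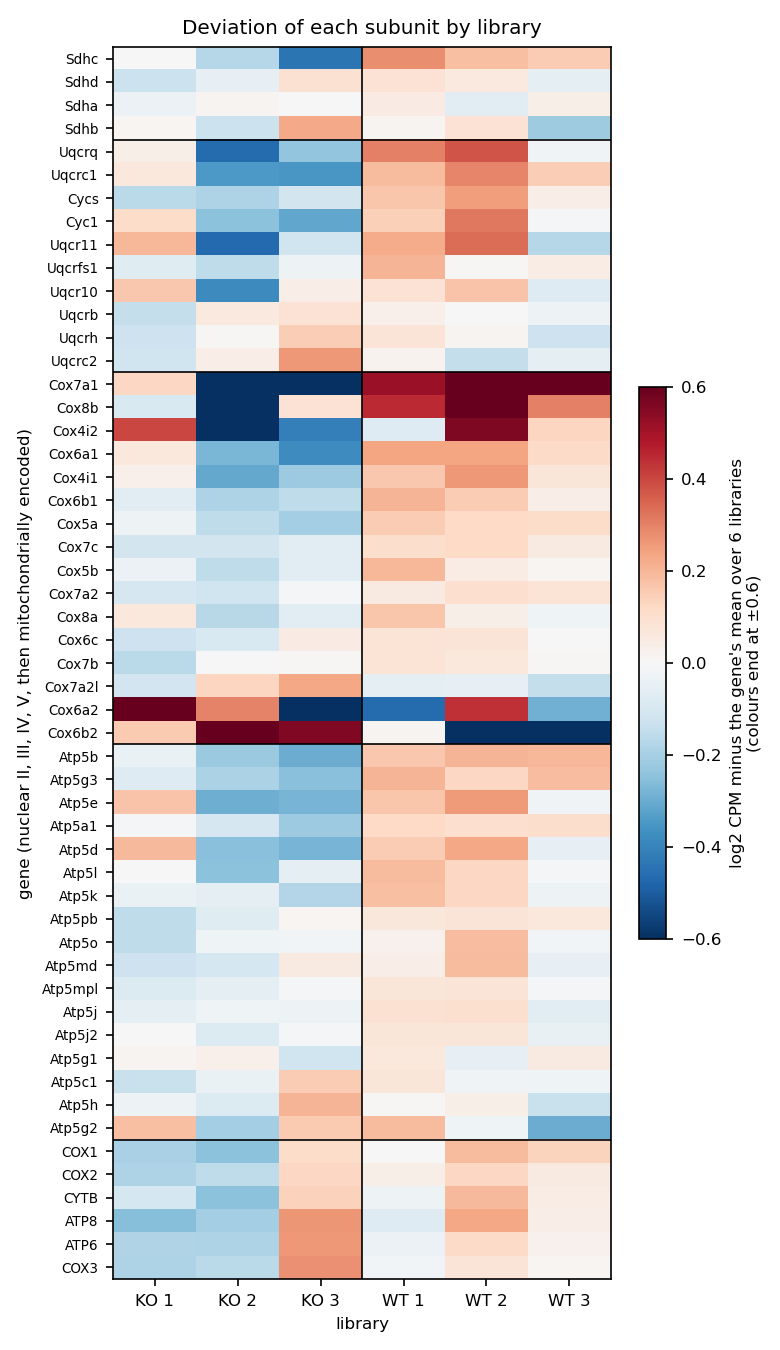
Centred log2 CPM of each tested member (rows, by complex) in each library (columns, KO left of WT), with colours ending at 0.6 in either direction. KO 2 is the column with the lowest values. In KO 3 the mitochondrially encoded rows have a median of 0.20, against -0.06 for the nuclear rows.

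**Figure D4:**
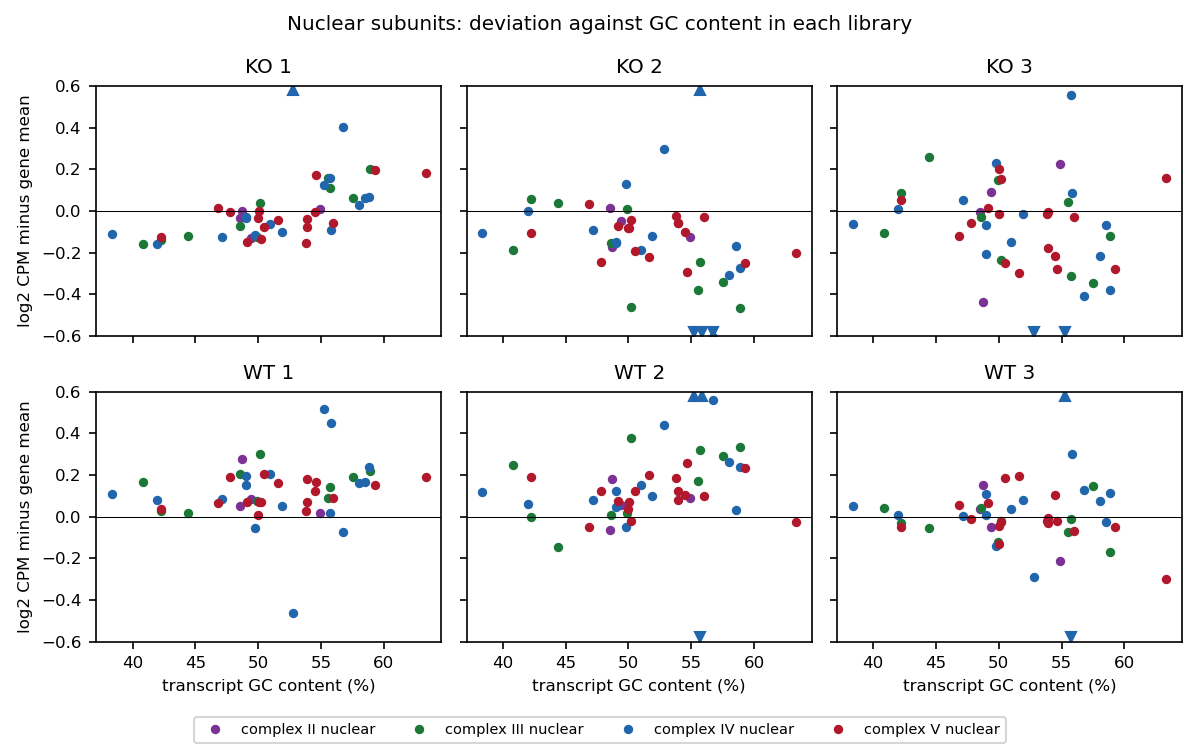
Centred log2 CPM of the 47 nuclear members against transcript GC content (percent), 1 panel per library, KO panels before WT panels. Values are higher at higher GC content in KO 1 (Spearman 0.67) and lower in KO 2 (-0.48), and 12 of 282 points beyond 0.6 are drawn at the edge.

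Genes that build or supply the complexes were read from the same fit, with none called in any list. Among 26 tested complex IV assembly factors 17 were below 0 (median -0.07). Higd1a had 29.7, 28.1 and 28.9 CPM in KO libraries, against 38.2, 44.3 and 36.8 CPM in WT libraries (-0.46 ± 0.10, edgeR adjusted p = 0.125), and Higd2a had 48.1, 37.6 and 31.2 CPM in KO and 53.5, 72.3 and 54.6 CPM in WT (-0.63 ± 0.18, edgeR adjusted p = 0.169). Both belong to the family of hypoxia-inducible proteins that associate with complexes III and IV. The 4 complex II factors had a median of -0.10 (Sdhaf4 -0.18, Sdhaf3 -0.25) and the 7 complex III factors 0.00108 (Uqcc2 -0.20, Uqcc3 0.10). The 7 genes listed for complex V had a median of -0.0169 (Atpaf2 -0.29, Atpaf1 0.21). That list also holds the inhibitor Atpif1 and Foxred1, which are not complex V assembly factors.

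Regulators and mitochondrial DNA genes had medians on the other side of 0. Of 15 tested regulators 10 were above 0 (median 0.07). Ppargc1b, a coactivator of respiratory genes, had 11.8, 9.07 and 13.4 CPM in KO libraries, against 6.43, 5.31 and 7.42 CPM in WT libraries (0.84 ± 0.18, edgeR adjusted p = 0.134). Gabpb2, a partner subunit of GABPA, was at 0.29 ± 0.10 (edgeR adjusted p = 0.198). Of 21 genes of mitochondrial DNA transcription and maintenance 14 were above 0 (median 0.14). Tfam, which packages mitochondrial DNA and starts its transcription, had 21.9, 24.9 and 23.7 CPM in KO, against 19.8, 19.9 and 20.0 CPM in WT (0.24 ± 0.09, edgeR adjusted p = 0.209), and Mterf3 was at 0.26 ± 0.10. Of 21 genes listed under import and outer membrane 14 were below 0 (median -0.0203). That list also holds genes of other mitochondrial parts, among them Immt, Opa1 and Cs. The outer membrane channel Vdac1 had 183, 166 and 174 CPM in KO and 229, 219 and 227 CPM in WT (-0.37 ± 0.09, edgeR adjusted p = 0.147), and Timm17a was at -0.27 ± 0.11.

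The nuclear subunits of complex I, which is not part of the set, had 30 of 39 tested genes below 0 with a median of -0.07, and mitochondrial ribosomal proteins 47 of 78 with a median of -0.03. The genes whose log2 CPM over the 6 libraries was most like the mean of the tested nuclear members were Cecr2 (Pearson r = 0.998), Hspb2 (0.995), Slc25a26 (0.991), Hax1 (0.987) and Lamtor4 (0.987), as a description over 6 libraries.

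Markers of adipocytes and of other cell types were read from the same libraries. Among the 8 adipocyte markers 6 were below 0, with a median of -0.27, although Pparg was at 0.61 and Pnpla2 at -0.48. Endothelial markers summed to 78.6 to 94.4 TPM in KO libraries and 114 to 153 TPM in WT libraries, all 5 below 0 (median -0.71; Cldn5 -0.9981, Cdh5 -0.71). Macrophage markers summed to 351 to 481 TPM in KO and 286 to 343 TPM in WT (median 0.31; Trem2 1.01, Mrc1 0.51), and mesothelial markers to 490 to 587 TPM in KO and 289 to 491 TPM in WT (median 0.46; Wt1 1.14, Upk3b 0.51). Erythroid markers summed to 12112 to 18075 TPM in KO and 17240 to 17828 TPM in WT (median -0.38; Alas2 -0.40, Hba-a1 -0.39), and epididymal markers were at 0.147 to 0.385 TPM in KO and 0 to 0.166 TPM in WT, with Rnase10 at 1.34. None of these markers passed the test, and no testis marker had enough reads to test. Their part in the respiratory subunit values was not tested.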

How the data were processed

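Epididymal white adipose tissue was sampled in 6 libraries from a stranded mRNA kit, per the labels' protocols. Build mm10, StringTie 2.1.3b, Bowtie2 2.3.4.1, HISAT2 2.1.0, FastQC 0.11.7 and bcl2fastq 2.20.0 appear in the submitters' processing notes without roles. No source used here states the strand or multimapping rule of the counting, which makes values of overlapping genes (17 of the 55 members overlap a tested gene) and of near-identical copies uncertain. The authors deposited read counts (not normalized), FPKM and TPM values, named per the file headers. Counts entered every test, TPM gave levels per length, and FPKM was not used. Coordinates are those of RefSeq GRCm38.p6.

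Groups came from the titles. The filter was filterByExpr with a count of at least 10 and a total of at least 15. Counts were scaled by TMM and fitted with a robust quasi-likelihood model in edgeR 4.0.16 (R 4.3.3) on the label alone, two-sided, with Benjamini-Hochberg adjustment over all 17820 tested genes and a threshold of 0.05. Standard errors are the fold change divided by the square root of F. The script was tested on simulated data. Alternatives were DESeq2 1.42.0, limma 3.58.1 voom, other scalings and filters, the replicate number as a block, leaving out each library, and, chosen after seeing the data, a GC offset (longest transcript). No library pair agreed within sampling noise (lowest chi-square per degree of freedom 38.4). The biological coefficient of variation was 0.200.

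Members, lists and tests were chosen with earlier results of these data known. Named are the mitochondrial, isoform and Sdh genes, the 4 smallest p, the extremes and the most abundant gene of complexes III to V, the 2 smallest p of each list, Pak4, and the 5 genes most like the nuclear members. Uqcrfs1, Uqcr10, Uqcrb, Uqcrh, Bcl2l1, Itgad, Acta1, Ckm, Ucp1, Zic1, Tmem30a, Col8a1, Gm7049 and Gm11868 were named after their values were seen. Lists covered assembly factors of complexes II to V, transcriptional regulators, mitochondrial DNA transcription, and import and outer membrane. The complex V list also held Atpif1 and Foxred1, and the import list also held other mitochondrial genes such as Cs. Marker lists covered adipocytes, brown fat, skeletal muscle, heart, testis, epididymis, endothelium, macrophages, mesothelium and erythroid cells.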

Additional observations from a re-analysis of the deposited data

How the results depend on the processing

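The count of genes called over all genes, 3, was 1048 in DESeq2, 5 in limma voom and 1 with the replicate block, and ran from 1 to 1016 when a library was left out, with 1016 without KO replicate 1. Members called, 0, were 4 in DESeq2 and 0 to 3 when a library was left out. With library size alone, 29 members were below 0 in place of 44, and the medians were -0.015 over all members, 0.082 for complex II, -0.093 for III, -0.059 for IV and -0.0086 for V. That scaling moved the median of all genes to 0.13, and members minus that median were -0.15, the same as with TMM. This difference is nearly fixed, because the scaling shifts all genes nearly alike. When a library was left out, the median ran from -0.074 (without KO replicate 3) to -0.0077 (without KO replicate 1) for complex II, from -0.28 (without WT replicate 3) to -0.12 (without KO replicate 2) for III, from -0.21 to -0.16 for IV, from -0.18 (without WT replicate 3) to -0.078 (without WT replicate 2) for V and from -0.24 (without KO replicate 3) to -0.045 (without WT replicate 2) for the mitochondrial genes. The order of the complexes by median stayed the same with library size alone. Such a scaling shifts every gene by nearly the same amount, so it cannot test that order. Cox8b ran from -1.19 to -0.54, Cox4i2 from -0.77 to -0.17, Uqcr11 from -0.43 to -0.098, Cox7a2l from 0.09 to 0.26 and COX1 from -0.33 to -0.15. With library size alone the fold change turned above 0 for Sdha (0.10), Sdhd (0.062), Uqcr10 (0.0093), Cox6c (0.012), Cox7b (0.022), Cox8a (0.00145), Atp5c1 (0.11), Atp5g1 (0.071), Atp5j (0.040), Atp5j2 (0.053), Atp5md (0.000468), Atp5mpl (0.024), ATP6 (0.067), ATP8 (0.00808) and COX3 (0.088). Uqcrb was -0.0016 in DESeq2, -0.0047 with RLE and -0.068 with the GC offset. Leaving out a library gave ranges across 0 for Sdha (-0.048 to 0.00467), Sdhb (-0.026 to 0.15), Uqcr10 (-0.22 to 0.036), Uqcrb (-0.038 to 0.072), Uqcrh (-0.051 to 0.087), Cox6a2 (-0.085 to 0.70), Atp5c1 (-0.096 to 0.047), Atp5g2 (-0.032 to 0.21), Atp5h (-0.028 to 0.12), ATP6 (-0.22 to 0.021) and COX3 (-0.20 to 0.046). The cause was not tested. The mitochondrial genes had no GC value and are not in the GC offset.

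The replicate numbers are not stated to pair the libraries. The correlations of deviations of same-numbered libraries were -0.17, -0.02 and 0.05, too few values to decide whether they do. With the replicate block, 0 members were called, the lowest member adjusted p was 0.283 and their median was -0.14. At this depth Cox6a2, with 6 to 17 counts per library, could not be resolved.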
